A study of Mus musculus with 45 samples.

Results

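The surfeit genes *Surf1*, *Surf2*, *Surf4* and *Surf6* were followed through depletion of the transcription factor GABPA in mouse embryos and embryonic stem (ES) cells. They were taken by symbol, 4 of the 55385 genes in each RNA sequencing (RNA-seq) table, and all 4 passed the low-count filter at each of the 4 stages. The set was chosen by location and on measured RNA levels of these libraries, with the fall of *Surf2* at the late two-cell stage known, so the late two-cell comparison of these genes is given below as a description without a test. Whether levels at the other stages also entered the choice is not known, so the tests there may not be independent of it.

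The surfeit cluster is a compact group of housekeeping genes that are unrelated in sequence but lie side by side on mouse chromosome 2. *Surf1* encodes an assembly factor of cytochrome c oxidase, the last complex of the mitochondrial respiratory chain, and its loss in humans causes Leigh syndrome. *Surf2* encodes a nucleolar protein that binds the 5S ribonucleoprotein, *Surf4* a cargo receptor that carries secreted proteins out of the endoplasmic reticulum (ER), and *Surf6* a nucleolar protein of ribosome assembly. *Med22* (also called *Surf5*), a Mediator subunit, and *Rpl7a* (also called *Surf3*), a ribosomal protein of the large subunit, complete the cluster. *Surf1* and *Surf2* are transcribed away from each other from a shared bidirectional promoter known to bind YY1 and ETS family proteins, and GABPA is an ETS factor that recognises a GGAA core.

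In all groups both *Gabpa* alleles carried a degradation tag (genotype Gabpa-dTAG/dTAG), controls included, and dTAG13, which sends the tagged protein to the proteasome, was compared with DMSO. Embryos received dTAG13 at 1 µM in KSOM medium, from the zygote to the late two-cell stage (L2C, 3 dTAG13 and 3 DMSO libraries), from the four-cell stage to morula (2 and 2), or from early blastocyst to the E4.5 inner cell mass (ICM, isolated by immunosurgery and holding epiblast and primitive endoderm, 2 and 2). ES-E14 cells, picked as single clones after editing and grown in 2i/LIF medium (2iES), received 0.5 µM for 24 h (2 and 2). Embryos came from oocytes of females aged 7 to 8 weeks fertilised in vitro with sperm of males aged 8 to 12 weeks, in a line crossed back to C57BL/6J. The study calls the L2C, ICM and 2iES libraries biological replicates. For morula it states only that RNA-seq was repeated. The number of embryos in a library, and what separates the morula libraries from each other, is not given in the sources used here. The p values in morula thus measure a spread that may be technical.

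The 18 libraries held between 9457933 and 27660132 expected counts, with the fewest in morula. The *Gabpa* transcript was not lowered by dTAG13, which acts on the protein: at L2C it was 103 ± 14.7 TPM (transcript abundance per length, scaled to the same total in each library; mean ± SD, n = 3) in DMSO and 153 ± 10.6 in dTAG13, and its mean was also higher in dTAG13 at the other stages, 13.2 against 7.40 TPM in morula, 27.4 against 10.6 in ICM and 11.2 against 6.57 in 2iES. Replicates of the E4.5 ICM agreed more closely than those of the other stages, with an edgeR common biological coefficient of variation of 0.0237 against 0.159 in 2iES, 0.213 in morula and 0.284 at L2C. Adjusted p values in ICM are correspondingly small, and rest on the spread between 2 libraries in each group. Whether this small spread covers the variation between separate collections of embryos was not tested. Markers of other cells also moved there: the summed level of 6 trophectoderm markers was 66.5 to 72.6 TPM in the DMSO ICM and 775 to 776 TPM in the dTAG13 ICM, with 6 of 6 called higher, while 5 of 7 epiblast markers were called lower (summed level 518 to 529 TPM in DMSO, 219 to 227 in dTAG13) and 0 of 5 primitive endoderm markers were called by edgeR (summed level 221 to 230 TPM in DMSO, 295 to 297 in dTAG13). Their part in the ICM results below was not tested. In 2iES the summed trophectoderm level was 107 to 138 TPM in DMSO and 125 to 131 TPM in dTAG13. The paper reports that the ICM was collected at the mid-blastocyst stage, before epiblast cell counts differed between DMSO and dTAG13. The bulk RNA values alone cannot tell fewer cells of a type from less RNA per cell.

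In the mouse genome build GRCm38 with GENCODE M21 models, the members span 45.3 kb of chromosome 2, from 26888628 to 26933928. *Surf6* (ENSMUSG00000036160.13, minus strand) lies at chr2:26888628-26902879, and *Med22* and *Rpl7a* follow it. *Surf1* (ENSMUSG00000015790.16, minus strand) at chr2:26913381-26916530 and *Surf2* (ENSMUSG00000014873.15, plus strand) at chr2:26916367-26920183 stand head to head: the shorter coding transcripts of *Surf1* (start at 26916345) begin 21 bases away from the coding transcript of *Surf2* (start at 26916367), and the longest coding transcript of *Surf1* (start at 26916530) begins 163 bases inside *Surf2*. *Surf4* (ENSMUSG00000014867.9, minus strand) at chr2:26920040-26933928 stands tail to tail with *Surf2*. The exons of *Surf1* and *Surf2* share 137 bases and those of *Surf2* and *Surf4* share 144 bases, and the library kit does not mark strand, so reads inside these stretches cannot be given to one gene by strand. The estimated uncertainty of this division was small: the posterior SD of the *Surf2* count in the 18 libraries was at most 5.06 counts, and at most 2.92% of the count.

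**Figure D1:**
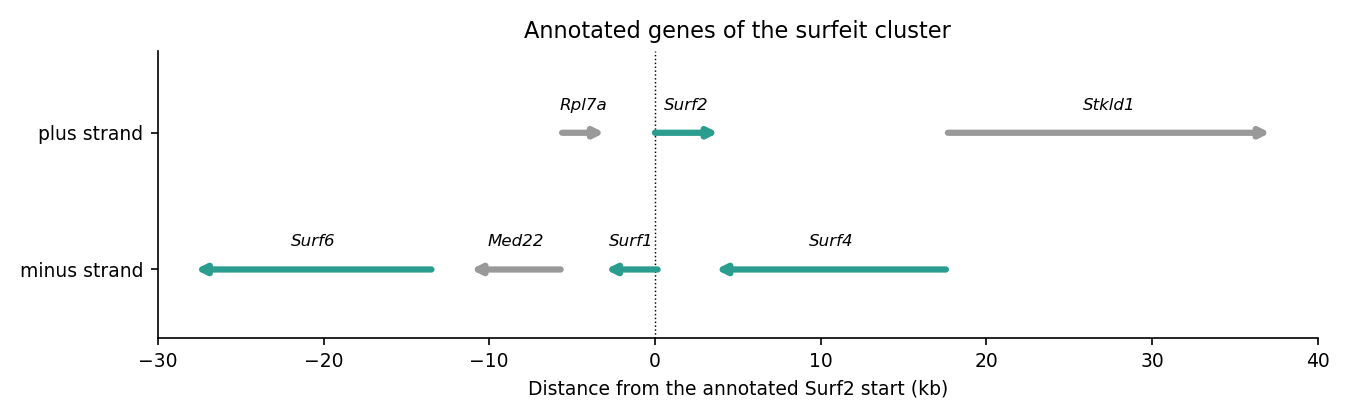
Annotated genes of the surfeit cluster by strand (vertical axis) and distance from the annotated Surf2 start in kb (horizontal axis), with arrows in the direction of transcription, members in green and neighbours in grey. Surf1 and Surf2 point away from each other at the dotted line, and the 3′ ends of Surf2 and Surf4 overlap by 144 bases.

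The promoter sequences are shown because the members differ in the GABPA-type motif CCGGAAG, an ETS site extended on both sides of its core. All 4 members matched a RefSeq promoter window (build GRCm38.p6, 250 bases before to 50 after the RefSeq start). On both strands, the *Surf2* window held CCGGAAG 2 times and the YY1-type word AAGATGG 1 time, the *Surf1* window held CCGGAAG 1 time, the *Surf6* window held it 4 times and the *Surf4* window 0 times. Among 32851 promoter windows of the same length, 8.86% held CCGGAAG, 1.48% held it at least 2 times and 6.34% held AAGATGG. The core GGAA alone stood in 96.0% of windows, *Surf1* (8 matches), *Surf2* (3), *Surf4* (2) and *Surf6* (5) included, and it lies within every CCGGAAG. The windows of *Med22* and *Rpl7a*, which share a start region, held CCGGAAG 0 times and the same single AAGATGG. The sites below are printed 5′ to 3′ on the strand of the gene named, with CCGGAAG and AAGATGG, here all read from the opposite strand as CTTCCGG and CCATCTT, in capitals.
Surf2, chr2:26916323-26916352, plus strand: agcagCCATCTTtgagcaCTTCCGGgaccg
Surf2, chr2:26916358-26916380, plus strand: tctgcttcCTTCCGGgacggcgc
Surf1, chr2:26916514-26916536, minus strand: gccctactCTTCCGGtcacggtt
Surf6, chr2:26902982-26903004, minus strand: cactgtggCTTCCGGggctggct
Surf6, chr2:26902917-26902939, minus strand: gggggtggCTTCCGGtgctccag
Surf6, chr2:26902881-26902903, minus strand: ataagataCTTCCGGcggggtca
The CCGGAAG matches of *Surf2* lie across the start of the shorter *Surf1* transcripts and across the start of the coding *Surf2* transcript, with 18 bases between them, so they lie in the start region of both genes. The fourth *Surf6* match lies 41 bases after its start. A match describes these letters and does not show binding, and binding profiles were not analysed here.

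*Surf2* and *Surf1*, the divergent pair, fell with dTAG13 in the E4.5 ICM and in 2iES cells. They were also far lower at L2C, where no test is given, and did not pass the test in morula. *Surf2* kept 2.38% of its mean DMSO level at L2C, 7.83% in ICM and 5.16% in 2iES, and 72.9% in morula. *Surf1* kept 8.16%, 32.5%, 14.3% and 80.2% at the same stages in that order. Across the cluster, *Surf4* moved in different directions at different stages and the differences of *Surf6* were under 2-fold at every stage.

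**Figure D2:**
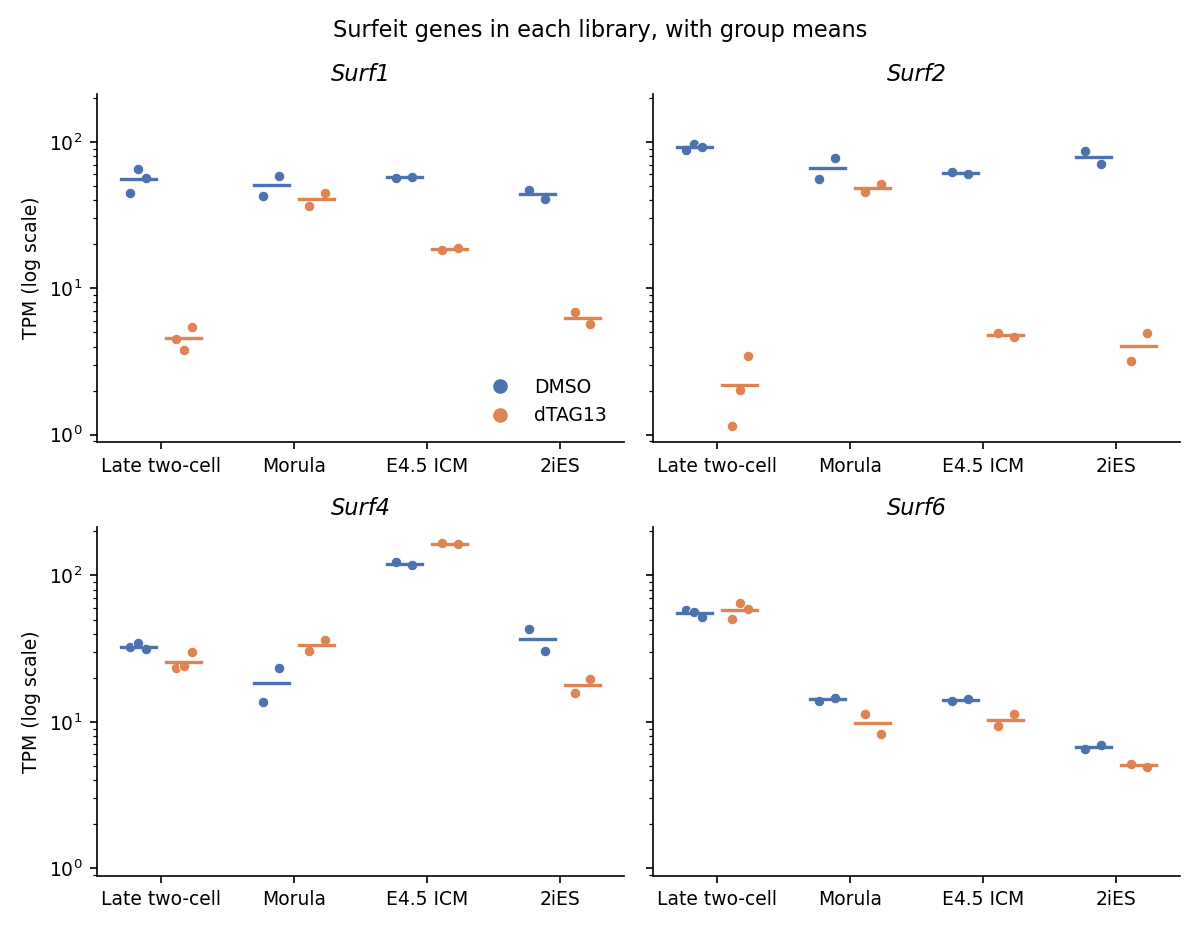
TPM on a log axis for each library of Surf1, Surf2, Surf4 and Surf6 at 4 stages; points are libraries, short bars are group means, blue is DMSO and orange is dTAG13. Surf2 sits between 1.14 and 4.94 TPM in every dTAG13 library of L2C, ICM and 2iES and between 45.6 and 51.7 TPM in morula.

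*Surf2* was the member with the largest fold change at L2C, in ICM and in 2iES, but not in morula. At L2C it stood at 87.6, 96.5 and 92.9 TPM in the DMSO libraries and at 1.14, 2.02 and 3.44 TPM in the dTAG13 libraries. The groups lay far apart, and the dTAG13 libraries differed from each other by more in proportion than the controls did. The edgeR log2 fold change was -5.06 (SE 0.27), the lowest among the members at this stage. In morula *Surf2* stood at 56.0 and 77.5 TPM in DMSO and at 45.6 and 51.7 TPM in dTAG13, without overlap but with a spread between controls that exceeded the gap between groups (log2 fold change -0.43, SE 0.21, edgeR quasi-likelihood adjusted p = 0.401). In ICM it was 62.0 and 60.5 TPM against 4.93 and 4.66 TPM (log2 fold change -3.76, SE 0.08, edgeR adjusted p = 3.9e-31). In 2iES it was 86.6 and 70.7 TPM against 3.17 and 4.94 TPM (log2 fold change -4.15, SE 0.23, edgeR adjusted p = 5.03e-05).

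*Surf1* followed its divergent partner at a smaller fold. At L2C its levels were 45.2, 65.8 and 57.1 TPM in DMSO and 4.49, 3.76 and 5.46 TPM in dTAG13 (log2 fold change -3.62, SE 0.22). In morula they were 42.7 and 58.8 TPM against 36.3 and 45.1 TPM, and the groups overlapped (log2 fold change -0.29, SE 0.22, edgeR adjusted p = 0.603). In ICM they were 56.6 and 58.0 TPM against 18.3 and 18.9 TPM (log2 fold change -1.77, SE 0.07, edgeR adjusted p = 5.75e-23). The dTAG13 ICM libraries thus held more *Surf1* than any dTAG13 library of L2C or 2iES. In 2iES *Surf1* stood at 47.2 and 40.8 TPM in DMSO and at 6.89 and 5.69 TPM in dTAG13 (log2 fold change -2.95, SE 0.16, edgeR adjusted p = 4.17e-05).

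*Surf4* was lower in dTAG13 at L2C and in 2iES and higher in morula and ICM. At L2C it stood at 32.3, 34.3 and 31.5 TPM in DMSO and at 23.3, 24.1 and 29.9 TPM in dTAG13 (log2 fold change -0.26, SE 0.12). The groups did not overlap in TPM, and the gap between the nearest libraries was small. In morula it was 13.6 and 23.2 TPM against 30.5 and 36.3 TPM, where the DMSO libraries themselves lay well apart (log2 fold change 0.65, SE 0.25, edgeR adjusted p = 0.282). Without DMSO replicate 2, the higher of these controls, the morula difference was 1.05 and was called higher (edgeR adjusted p = 0.0324). In ICM *Surf4* reached its highest levels, 123 and 118 TPM in DMSO and 167 and 163 TPM in dTAG13 (log2 fold change 0.41, SE 0.03, edgeR adjusted p = 2.34e-16). With all 18 libraries in 1 fit, which gives ICM the spread of the other stages, that adjusted p was 0.096 by edgeR. In 2iES *Surf4* fell from 43.4 and 30.4 TPM to 15.9 and 19.6 TPM (log2 fold change -1.08, SE 0.15, edgeR adjusted p = 0.00122). This call stood close to the 2-fold limit and was lost without DMSO replicate 1 (log2 fold change -0.93).

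*Surf6*, with the most CCGGAAG matches in its window, stood at 58.2, 56.5 and 52.3 TPM in DMSO and at 50.5, 64.6 and 59.0 TPM in dTAG13 at L2C, and the groups overlapped (log2 fold change -0.02, SE 0.13). In morula it was 14.0 and 14.6 TPM against 11.3 and 8.20 TPM (log2 fold change -0.67, SE 0.24, edgeR adjusted p = 0.258). In ICM it was 13.8 and 14.4 TPM against 9.42 and 11.2 TPM (log2 fold change -0.70, SE 0.08, edgeR adjusted p = 3.16e-10), a fall under 2-fold. In 2iES it was 6.56 and 6.89 TPM against 5.17 and 4.91 TPM (log2 fold change -0.54, SE 0.19, edgeR adjusted p = 0.0435), and this passed in some settings and failed in others: it was lost when either dTAG13 library was left out (edgeR adjusted p = 0.116 without replicate 1 and 0.311 without replicate 2).

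A gene was called where the edgeR adjusted p over all tested genes was under 0.05, the fold at least 2 and the mean FPKM (fragments per length and per library size) at least 1 in one group. At L2C, where *Surf2* was known to be lower when the members were chosen, 2 of 4 (*Surf1*, *Surf2*) met the rule in the lower direction, beside 3.63% of all tested genes, and 0 in the higher, beside 0.476%, and nothing is read from this count. In morula 0 of 4 were called, beside 0.198% of genes lower and 0.154% higher, with 27 genes called lower and 21 higher among 13667 by edgeR, 66 and 44 by DESeq2, and 1854 genes at an unadjusted p under 0.05. DESeq2 also called 0 of 4 members in morula, and at an unadjusted p under 0.05 *Surf4* and *Surf6* passed in edgeR and *Surf1* and *Surf2* did not. In ICM 2 of 4 (*Surf1*, *Surf2*) were called lower, beside 13.2% of genes, and 0 higher, beside 12.1%. In 2iES 3 of 4 (*Surf1*, *Surf2*, *Surf4*) were called lower, beside 15.6%, and 0 higher, beside 12.4%. By the adjusted p alone, 3 of 4 members were lower in ICM, beside 38.5% of genes, 1 (*Surf4*) was higher there, beside 38.4%, and 4 of 4 were lower in 2iES, beside 28.1%.

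**Figure D3:**
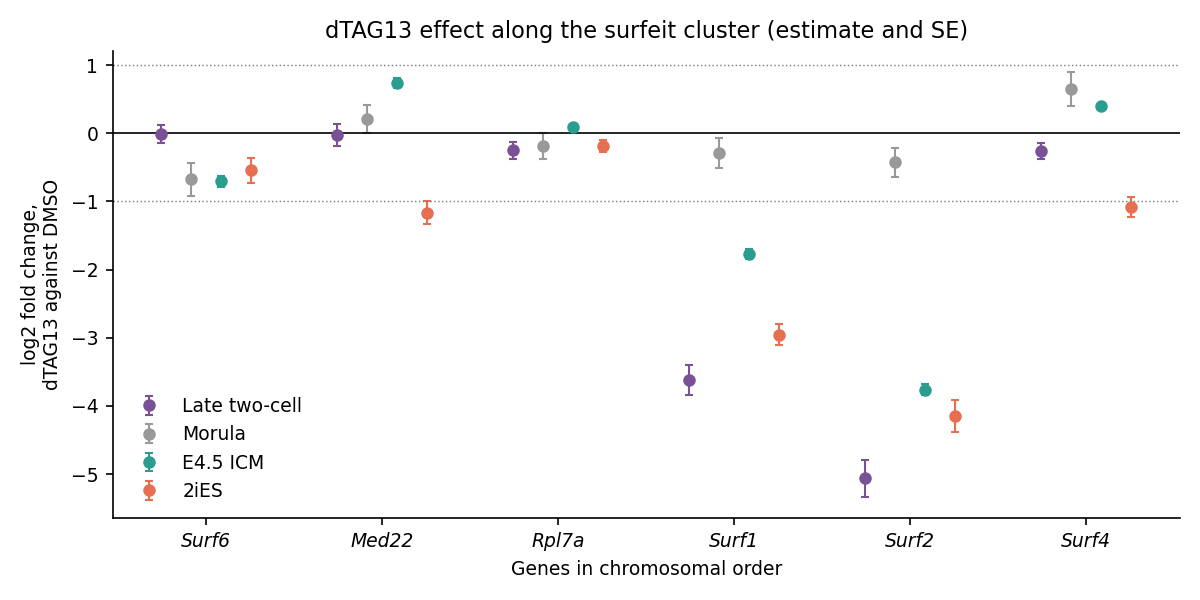
edgeR log2 fold change of dTAG13 against DMSO (vertical axis, points with SE bars) for the 6 cluster genes in chromosomal order (horizontal axis), coloured by stage; dotted lines mark 2-fold. Surf1 and Surf2 reach between -1.77 and -5.06 at L2C, ICM and 2iES, while Rpl7a, the gene next to Surf1, stays between -0.25 and 0.10.

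The difference of the dTAG13 effect between stages was tested as an interaction over morula, ICM and 2iES, on 18245 genes, with a call at an adjusted p under 0.05. From morula to ICM the effect on the log2 scale differed by -3.31 for *Surf2* (SE 0.27, edgeR adjusted p = 2.15e-06) and by -1.47 for *Surf1* (SE 0.22, edgeR adjusted p = 0.000334), so 2 of 4 members were called beside 14.8% of all genes. From morula to 2iES the differences were -3.70 for *Surf2* (SE 0.27, edgeR adjusted p = 2.48e-07), -2.64 for *Surf1* (SE 0.23, edgeR adjusted p = 1.69e-06) and -1.71 for *Surf4* (SE 0.27, edgeR adjusted p = 0.000276), 3 of 4 members beside 17.3% of genes. These comparisons share the morula libraries. Between ICM and 2iES, the effect on *Surf1* differed by -1.17, the larger fall being in 2iES (SE 0.23, edgeR adjusted p = 0.00194) and *Surf4* differed by -1.48 (SE 0.27, edgeR adjusted p = 0.00102), 2 of 4 members beside 14.8%. *Surf4* did not pass between morula and ICM (-0.23, SE 0.27, edgeR adjusted p = 0.578), and *Surf2* did not pass between ICM and 2iES (-0.39, SE 0.28, edgeR adjusted p = 0.323), nor did *Surf6* in any of the 3 differences, which lay between -0.01 and 0.17. Embryos and 2iES cells differed in dTAG13 dose and duration as well as in cell type, which cannot be told apart here.

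The order of levels within the pair differed between DMSO and dTAG13 at L2C and in ICM and 2iES. In DMSO the ratio of *Surf2* TPM to *Surf1* TPM was 1.94, 1.47 and 1.63 at L2C, 1.31 and 1.32 in morula, 1.10 and 1.04 in ICM and 1.84 and 1.73 in 2iES, so *Surf2* was the more abundant transcript per length in every control library. In dTAG13 it was 0.25, 0.54 and 0.63 at L2C, 0.27 and 0.25 in ICM and 0.46 and 0.87 in 2iES, and *Surf1* was the more abundant. Morula kept the control order with 1.26 and 1.15. These ratios are a description without a test.

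**Figure D4:**
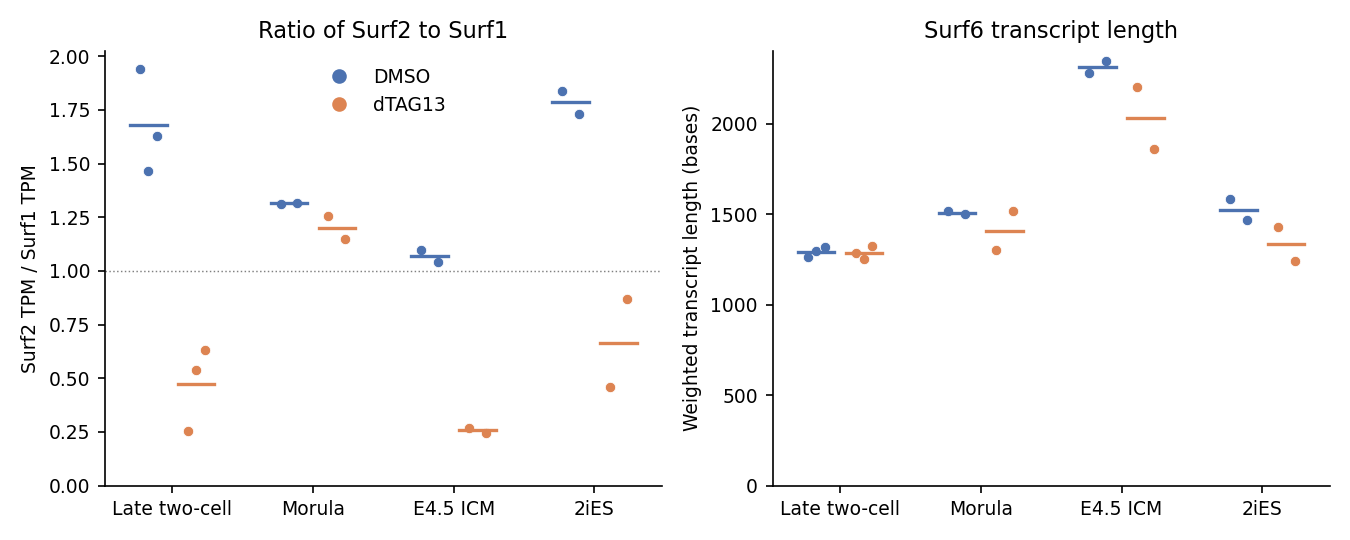
Left, the ratio of Surf2 TPM to Surf1 TPM in each library (points) and group means (bars), with the dotted line at equal levels; right, the abundance-weighted length of Surf6 transcripts in bases. The ratio lies below 1 in all dTAG13 libraries of L2C, ICM and 2iES, and Surf6 length is highest in ICM (1861 to 2347 bases).

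The control libraries give the members' own course through development. Means ± SD were 56.0 ± 10.4 TPM (n = 3) at L2C, 50.7 ± 11.4 (n = 2) in morula, 57.3 ± 1.03 (n = 2) in ICM and 44.0 ± 4.51 (n = 2) in 2iES for *Surf1*, which passed no test between neighbouring stages (edgeR adjusted p = 0.0521, 0.353 and 0.544 in that order). The fitted log2 differences of *Surf1*, from counts with TMM scaling, were 0.45 (SE 0.19) from L2C to morula, -0.26 (SE 0.21) from morula to ICM and 0.17 (SE 0.21) from ICM to 2iES, each opposite in sign to the step between its TPM means, so no direction is given for *Surf1*. *Surf2* means were 92.3 ± 4.46, 66.7 ± 15.2, 61.3 ± 1.04 and 78.7 ± 11.3 TPM. Its step from morula to ICM was -0.46 (SE 0.18, edgeR adjusted p = 0.0493), and this was lost without morula DMSO replicate 2 or either ICM DMSO library (edgeR adjusted p = 0.278, 0.104 and 0.119). Its rise from ICM to 2iES was 0.89 (SE 0.18, edgeR adjusted p = 0.00161, beside 21.9% of genes higher by the adjusted p alone), and it was 0.42 with library totals only (edgeR adjusted p = 0.0559).

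*Surf4* had the largest single fitted step between neighbouring control stages among the members. Its means were 32.7 ± 1.47 TPM at L2C, 18.4 ± 6.75 in morula, 121 ± 3.64 in ICM and 36.9 ± 9.15 in 2iES. It rose by 2.36 on the log2 scale from morula to ICM (SE 0.21, edgeR adjusted p = 4.02e-06) and fell by 1.20 from ICM to 2iES (SE 0.20, edgeR adjusted p = 0.000576). *Surf6* went down at 2 steps, from 55.7 ± 3.03 TPM at L2C to 14.3 ± 0.42 in morula, 14.1 ± 0.42 in ICM and 6.73 ± 0.23 in 2iES. Its step from L2C to morula was -1.39 (SE 0.16, edgeR adjusted p = 8.41e-06) while the median of all 19830 genes tested moved by -0.28, and its step from ICM to 2iES was -1.12 (SE 0.17, edgeR adjusted p = 0.000276). Called members were thus 1 of 4 lower from L2C to morula (*Surf6*, beside 27.7% of genes), 1 of 4 higher from morula to ICM (*Surf4*, beside 16.0%) and 2 of 4 lower from ICM to 2iES (*Surf4*, *Surf6*, beside 12.7%). Per length, the order of the control means was *Surf2*, *Surf1*, *Surf6*, *Surf4* at L2C, where *Surf1* and *Surf6* did not differ beyond their spread, and *Surf4*, *Surf2*, *Surf1*, *Surf6* in ICM. It was *Surf2*, *Surf1*, *Surf4*, *Surf6* in morula and 2iES. In morula the means of *Surf4* and *Surf6* lay within the spread between libraries. So did those of *Surf1* and *Surf2*, but *Surf2* was higher within each morula control library (ratio 1.31 and 1.32). In 2iES the means of *Surf1* and *Surf4* lay within the spread, but *Surf1* was higher within each control library.

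The transcript length that RSEM weighted by isoform abundance lay between 801 and 1086 bases for *Surf1* and between 2531 and 3103 bases for *Surf4* over the 18 libraries. *Surf6* transcripts averaged 1265, 1297 and 1316 bases in the L2C controls and 2281 and 2347 bases in the ICM controls, between its coding models of 894 and 2971 bases, so its counts and its TPM give different steps between these stages. *Surf2* averaged 1155 to 1198 bases in L2C DMSO and 1421 to 1768 bases in L2C dTAG13, where its count was only 45.6 to 99.5. Its coding model holds 1203 bases, and the longest processed transcript and the retained-intron model hold 2519 and 3254. In ICM the *Surf2* length was 1218 and 1242 bases in DMSO and 1213 and 1183 bases in dTAG13.

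Neither *Rpl7a* nor *Med22* was called by edgeR at L2C, in morula or in ICM. *Rpl7a*, which ends 62 bases from *Surf1*, had log2 fold changes of -0.25 (SE 0.12) at L2C, -0.18 (SE 0.19) in morula, 0.10 (SE 0.02) in ICM and -0.19 (SE 0.09) in 2iES. *Med22* had -0.02 (SE 0.16) at L2C and 0.21 (SE 0.21) in morula, rose by 0.74 in ICM (SE 0.07, edgeR adjusted p = 4.06e-11) and fell by 1.16 in 2iES (SE 0.17, edgeR adjusted p = 0.00146), the same signs as the differences of *Surf4* in the last 3 of these. Of 11 other genes within 100 kb of the members, 5 were tested at each stage. By edgeR 0 of 5 were called at L2C and in morula, and 0 of 5 had an unadjusted p under 0.05 at either stage. Over all tested genes, 3.63% were called lower and 0.476% higher at L2C, and 0.198% and 0.154% in morula. In ICM 1 of 5 was called lower and 1 higher, beside 13.2% and 12.1% of all tested genes. In 2iES 1 of 5 was called lower, beside 15.6%, and 0 higher, beside 12.4%. *Abo*, the glycosyltransferase of the blood group locus, was called lower in ICM (log2 fold change -1.32, 4.07 to 1.68 TPM) and *Cacfd1* was called higher there (1.09, 8.36 to 16.8 TPM), while *Med22* was the only one called in 2iES. *Rexo4*, a putative exonuclease gene, passed the adjusted p but not the 2-fold limit in ICM (-0.78) and 2iES (-0.85).

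Genes that work with the members' proteins were counted in the same fits, members left out. These lists, here and below, were drawn up with earlier results of these data known. Their shares are therefore a description and not a test of enrichment. Of 23 other cytochrome c oxidase assembly factors, 5 of 22 tested were called lower at L2C, 0 of 23 in morula, 5 in ICM and 7 in 2iES, with 1 called higher, in ICM. These were 22.7% of the tested list at L2C, 21.7% lower and 4.35% higher in ICM and 30.4% in 2iES, where 3.63%, 13.2% and 15.6% of all tested genes were called lower, and in morula 0.198% were. The 0 in morula went with 2 genes lower and 0 higher at an unadjusted p under 0.05 by edgeR. *Cox16* fell by 3.00 at L2C (80.3 to 10.9 FPKM) and fell by 2.16 in 2iES (157 to 35.1 FPKM), where *Surf1* showed -3.62 and -2.95. *Cox17*, the copper chaperone of the complex, fell by 1.78 at L2C (379 to 109 FPKM) and fell by 1.09 in ICM (1299 to 644 FPKM). *Coa4* had log2 fold changes of -1.50 in ICM and -2.30 in 2iES, *Cox20* of -1.11 in ICM and *Cox18* of -1.25 in 2iES, and all were called lower, as was *Sco2* at L2C (24.4 to 12.8 FPKM). The list's median log2 fold change was -0.42 at L2C, 0.07 in morula, -0.10 in ICM and -0.37 in 2iES, beside 0.02, -0.02, 0.01 and 0.03 over all tested genes.

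Of 24 nucleolar factors of the large ribosomal subunit, in which *Surf6* works, 6 were called lower at L2C, 0 in morula, 10 in ICM and 12 in 2iES, and 0 were called higher at any stage (in morula 2 were lower and 2 higher at an unadjusted p under 0.05 by edgeR). These were 25.0%, 41.7% and 50.0% of the list at L2C, in ICM and in 2iES, beside 3.63%, 13.2% and 15.6% of all tested genes. Their median log2 fold change was -0.38, -0.18, -0.77 and -1.17 in that order, beside -0.02, -0.67, -0.70 and -0.54 for *Surf6*, and the difference between them was not tested. At L2C *Ebna1bp2* (-1.77), *Ppan* (-2.12) and *Nip7* (-1.73), all ribosome assembly factors, fell, where *Surf6* showed -0.02. *Rpf1* fell by 3.16 in ICM (93.5 to 11.2 FPKM) and fell by 4.65 in 2iES (181 to 8.05 FPKM), *Nifk* fell by 2.83 in ICM, and in 2iES *Ebna1bp2* fell by 4.05 and *Nip7* fell by 3.08. Of 5 genes of the 5S ribonucleoprotein, the partner of the *Surf2* product, 1 was called lower at L2C, 0 in morula, 2 in ICM and 2 in 2iES. These were 20%, 0%, 40% and 40% of the list, beside 3.63%, 0.198%, 13.2% and 15.6% of all tested genes. The called genes were *Rpf2*, a loading factor of that particle, (-1.73 at L2C, -2.92 in ICM and -3.07 in 2iES), and its partner *Rrs1* (-1.39 in ICM and -1.39 in 2iES). *Rpf2* also belongs to the list of 24 above, so the counts of these lists overlap.

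Of 31 genes of ER to Golgi transport, the pathway of *Surf4*, 4 were called lower at L2C, 0 in morula, 2 lower and 2 higher in ICM, and 6 lower and 1 higher in 2iES. In ICM these were 6.45% in each direction, under the 13.2% lower and 12.1% higher of all tested genes, and the shares lower were 12.9% at L2C, beside 3.63%, and 19.4% in 2iES, beside 15.6%. In morula 4 were higher and 0 lower at an unadjusted p under 0.05 by edgeR. Their median log2 fold changes were -0.10, 0.18, 0.01 and -0.14. *Sar1a*, the GTPase that starts COPII coats, fell at L2C (-1.43), as did *Tmed10* (-1.07) and *Sec22b* (-1.03). In ICM, where *Surf4* was higher, the cargo gene *Tmed7* rose by 1.44 and the COPII coat gene *Sec24d* by 1.48, and *Ergic1* fell by 2.53. In 2iES, where *Surf4* fell, *Ergic3* (-2.00), *Ergic1* (-1.78) and the coat gene *Sec31a* (-1.79) fell.

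Over all 18 libraries, *Surf1* and *Surf2* had a Pearson correlation of log2(TPM + 1) of 0.95, while the other pairs of members lay between -0.14 and 0.27. The 3 genes most like each member among 14264 others with a mean of at least 1 TPM were *Eif1ad* (0.97), *Tmem208* (0.96) and *Surf2* (0.95) for *Surf1*, *Gm14139* (0.96), *Psmb4* (0.96) and *Tprkb* (0.95) for *Surf2*, *Pdk2* (0.96), *Aatf* (0.95) and *Puf60* (0.95) for *Surf4*, and *Snrnp35* (0.99), *Rnf125* (0.99) and *Rpap3* (0.98) for *Surf6*. *Surf2* thus stood among the 3 genes closest to *Surf1*, its neighbour in the genome. These correlations describe 18 libraries that share stages and treatments, which are not independent points. They include the L2C libraries, where the fall of *Surf2* was known when the members were chosen, so they are a description only.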

How the data were processed

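RNA-seq libraries (SMART-Seq v4 with Nextera XT, unstranded) were trimmed by the authors with Trimmomatic 0.39 per the labels, then aligned to GRCm38 with STAR and quantified with RSEM. The deposited gene tables give expected counts, TPM, FPKM, an abundance-weighted length in bases and the posterior SD of each count (other values, by the authors with RSEM). The annotation is not given in the sources used here. Identifiers were matched to GENCODE M21, and 55144 of 55385 received a symbol. RSEM length weighting moves TPM and FPKM when isoform use changes, and counts not.

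Expected counts were rounded and fitted in edgeR 4.0.16 (TMM scaling, quasi-likelihood test, at least 10 counts in as many libraries as the smaller group), stage by stage for dTAG13 against DMSO, over the 9 DMSO libraries for control stages, and over morula, ICM and 2iES for interactions, with Benjamini-Hochberg adjustment. SEs are the log2 fold change over the root of the F statistic. A gene was called at an adjusted p under 0.05, a fold of at least 2 and mean FPKM of at least 1 in one group. Alternatives were other scalings, no filter, DESeq2 1.42.0, limma 3.58.1 on log2(TPM + 0.1) and log2(TPM + 1), 1 fit over all 18 libraries, a replicate block and leaving out each library. On simulated counts for L2C, 47% of 2-fold and 74% of 4-fold changes were recovered over 17421 genes, in morula 44% and 80% over 13667, in ICM 77% and 99% over 15840, and in 2iES 51% and 89% over 15511.

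Members and gene lists were chosen with earlier results of these data known. Text names the members, *Gabpa*, cluster genes, genes within 100 kb that were called or had a mean of at least 10 TPM, per list and stage up to 3 called genes with the largest change and at least 10 FPKM, and the 3 genes most like each member. Replicates differed by more than sampling noise in each group (median chi-square over genes 1.62 to 16.1 times the median under sampling noise alone). Samples without RNA-seq were not used here.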

Additional observations from a re-analysis of the deposited data

Results flagged for a closer look

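The difference of the dTAG13 effect between stages passed an adjusted p of 0.05 (edgeR interaction test over all genes) in 7 cases. From morula to E4.5 ICM it was -1.47 for *Surf1* and -3.31 for *Surf2*. From morula to 2iES it was -2.64 for *Surf1*, -3.70 for *Surf2* and -1.71 for *Surf4*. From E4.5 ICM to 2iES it was -1.17 for *Surf1* and -1.48 for *Surf4*.

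*Surf4* drew attention for a change of direction as well. In TPM, every dTAG13 library lay below every DMSO library at L2C (log2 fold change -0.26) and above every DMSO library in morula and in ICM. This difference between L2C and the later embryo stages was not tested, since the L2C comparison of the members is a description here. Groups of 2 or 3 libraries are too small to look for single libraries that stand apart.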

How the results depend on the processing

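The 40 member values (4 genes in 10 comparisons) were computed again under the alternatives, 608 values in all: 585 kept their direction and side of the threshold or moved by less than the replicate spread, 16 lost significance and 7 gained it, and no called value changed sign. *Surf1* and *Surf2* were called lower in ICM and 2iES under every setting run. The cause of the changes below was not tested.

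In 2iES, *Surf6* (-0.54) lost significance with upper-quartile scaling (-0.36), library totals (-0.50), DESeq2 (-0.55) and limma on log2(TPM + 0.1) (-0.41) or log2(TPM + 1) (-0.35). The *Surf4* call in 2iES was lost with upper-quartile scaling, where its fold change was -0.90, under the 2-fold limit. With all 18 libraries in 1 fit, *Surf4* passed in morula (0.73) and failed in ICM (0.42). Between control stages, *Surf4* passed from L2C to morula without the filter (-0.43) and with DESeq2 (-0.43), *Surf2* failed from morula to ICM with library totals (-0.35) and without the filter (-0.47), and *Surf2* failed from ICM to 2iES with library totals (0.42).

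Leaving out 1 library moved *Surf4* in morula between 0.35 and 1.05, *Surf6* in 2iES between -0.71 and -0.44, *Surf1* from L2C to morula between 0.26 and 0.64, *Surf4* over the same step between -0.74 and -0.03, and *Surf2* from morula to ICM between -0.67 and -0.25. *Surf1* from L2C to morula passed without L2C DMSO replicate 2 (0.59, edgeR adjusted p = 0.0104) and without morula DMSO replicate 1 (0.64, edgeR adjusted p = 0.0286), and *Surf4* passed without morula DMSO replicate 2 (-0.74, edgeR adjusted p = 0.00304).

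Same-numbered libraries did not pair: the correlation of their deviations was 0.056, 0.123 and 0.104 for the 3 L2C numbers, and the 2 pairs of each later stage gave 0.030, -0.046 and -0.241. With the replicate block *Surf6* in 2iES was -0.55 (edgeR adjusted p = 0.060) and *Surf2* from morula to ICM was -0.46 (edgeR adjusted p = 0.0791), both no longer past the threshold, and genes called in morula went from 27 lower and 21 higher to 142 and 106. A crossed pairing in 2iES, added after seeing the data, called 2411 genes lower and 2019 higher against 2415 and 1924.

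Of the counts over all genes, morula depended most on the setting, from 6 to 139 lower and 9 to 106 higher with the settings that kept all libraries without a block, and to 132 and 234 without DMSO replicate 2. At L2C, 83 genes were called higher, and 125 with upper-quartile scaling, 180 without the filter and 132 with DESeq2. Limma on log2(TPM + 1) called 1330 lower and 1209 higher in ICM against 2091 and 1909, and 1076 higher in 2iES. Library totals turned the step from control ICM to 2iES from 2515 lower and 2381 higher to 3864 and 1260. Leaving out 1 library gave 45 to 52 higher at L2C in the lowest cases, and in the stage differences 1280 to 1736 calls in a direction from morula to ICM (2704 lower and 2206 higher with all) and 1653 to 1890 from ICM to 2iES (2692 and 2899) in the cases that moved most. Upper-quartile scaling moved the median of all genes to 0.14 at L2C, 0.11 in ICM and 0.21 in 2iES, and library totals moved it to -0.33 from control ICM to 2iES, so the member values under those settings shift with it. The *Surf6* values in 2iES rest on 139 to 301 counts per library, and the part of depth was not tested.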
